A study of Saccharomyces cerevisiae with 2 samples.

Results

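The genes described here encode the enzymes of gluconeogenesis and of the glyoxylate cycle, the sugar-degrading invertase, and the transcription factors that set these genes by carbon source in *Saccharomyces cerevisiae*. They were chosen by systematic name for their known roles, with no threshold on a measured value, and all 10 were found among the 6692 genes of the series. There were 6 enzyme genes, *FBP1* (YLR377C), *PCK1* (YKR097W), *ICL1* (YER065C), *MLS1* (YNL117W), *MDH2* (YOL126C) and *SUC2* (YIL162W), and 4 regulator genes, *CAT8* (YMR280C), *SIP4* (YJL089W), *MIG1* (YGL035C) and *ADR1* (YDR216W).

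RNA was sequenced from 2 replicate libraries of 1 strain in 1 condition, methionine depletion. Cells of strain yJL59a grew with methionine in synthetic medium, to OD660 0.2, before they were washed and grown on without it. No source used here gives the carbon source of these cultures. The strain, of a w303 background, is labelled *MATa* and, per the labels, has mutant alleles of *HIS3* (*his3-11,15*), *TRP1* (*trp1-1*), *URA3* (*ura3-1*), *CAN1* (*can1-100*) and *ADE2* (*ade2-1*), and a mutant allele of *LEU2*. It also has *MET3* promoter reporters, mCherry at *CDC20* with a *URA3* marker and GFP at *CWC23* with a KanMX marker. Replicate 1 held 34052011 counts and replicate 2 held 35367508 counts. Both libraries have the same treatment, so levels can be set against those of other genes, or one replicate against the other, and nothing is called repressed or derepressed.

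Genes specific to mating type contradicted the *MATa* label in both libraries. The alpha-factor gene *MF(ALPHA)1* stood at 2401 ± 185 FPKM and the a-factor receptor gene *STE3* at 229.9 ± 28.3 FPKM, while *STE2*, which cells of mating type a transcribe, stood at 4.49 ± 0.0683 FPKM (SD, n = 2). *TRP1* had 0 counts in both libraries, and *HIS3* had 18 and 15 counts in replicates 1 and 2. These counts do not tell which alleles of *TRP1* and *HIS3* the strain carries, and the labelled alleles were not checked further. FPKM is the count divided by the coding length in kb and scaled to the total of the library. None of the genes described here is a mating-type gene, and whether mating type bears on their levels was not tested.

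Yeast that ferments glucose breaks sugar down, while yeast on ethanol or acetate has to build sugar up. The glyoxylate cycle turns acetyl units into malate and oxaloacetate, phosphoenolpyruvate carboxykinase (Pck1) draws oxaloacetate into gluconeogenesis, and fructose bisphosphatase (Fbp1) completes the path towards glucose phosphate. With glucose present, the zinc-finger repressor Mig1 sits in the nucleus and recruits the corepressor Cyc8-Tup1. When glucose runs out, the kinase Snf1 phosphorylates Mig1, which leaves the nucleus, and the zinc-cluster activators Cat8 and Sip4 act through a promoter sequence called the carbon source-responsive element (CSRE). Adr1 is a zinc-finger activator of genes for ethanol and fatty acid use.

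Matches to the CSRE are shown first, because this sequence ties the regulators to the enzymes. The pattern searched was CCNT and CCG with 4 bases of any kind between them, on both strands, within 1000 bases before each start codon of the R64 assembly (sacCer3). The following 11 matches lay before 5 enzyme genes and *SIP4*, between the gene and its nearest annotated neighbour. Capitals mark the pattern, read on the strand of the gene, and a match on the other strand appears as its reverse complement.
FBP1 chrXII:875276-875306, minus strand: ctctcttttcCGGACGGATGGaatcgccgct
PCK1 chrXI:630580-630610, plus strand: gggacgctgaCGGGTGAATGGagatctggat
PCK1 chrXI:630661-630691, plus strand: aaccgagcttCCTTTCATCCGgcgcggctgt
PCK1 chrXI:630780-630810, plus strand: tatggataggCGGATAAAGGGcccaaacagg
ICL1 chrV:287292-287322, minus strand: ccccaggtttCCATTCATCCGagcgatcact
MLS1 chrXIV:405817-405847, plus strand: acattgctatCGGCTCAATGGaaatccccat
MLS1 chrXIV:405848-405878, plus strand: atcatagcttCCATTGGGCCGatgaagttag
MDH2 chrXV:83333-83363, minus strand: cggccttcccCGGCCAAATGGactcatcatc
MDH2 chrXV:83300-83330, minus strand: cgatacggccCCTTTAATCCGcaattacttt
MDH2 chrXV:83277-83307, minus strand: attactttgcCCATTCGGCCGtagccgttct
SIP4 chrX:265641-265671, plus strand: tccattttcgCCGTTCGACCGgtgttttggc

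In all, 8 of the 10 genes held a match, 5 of 6 enzyme genes and 3 of 4 regulator genes, where 14.2% of 5988 nuclear genes did. *SUC2* and *CAT8* held none. The farthest and the nearest match of the enzyme genes, both before *PCK1*, began 562 and 362 bases before the start codon, and that of *SIP4* began 275 bases before it. *MIG1* and *ADR1* held 1 match each, at 816 and 887 bases, and both lay farther from the start codon than the near end of the next annotated gene. With the window ended at that gene, 6 of the 10 held a match, against 7.08% of genes. The CSRE was defined in part on promoters of these enzyme genes, so the count is a description and not independent evidence. The pattern was not particular to the 10 genes. In the full window it lay before 5 of 13 isozymes, paralogs and opposing enzymes, among them glycolytic *PFK2* and *CDC19*. It lay before 9 of 16 genes for ethanol, acetate and fatty acid use, and 4 of 11 for Snf1 and its phosphatase. For other activators it was 3 of 8, for other repressors 2 of 8 and for the GID ligase 0 of 9. These lists are described below.

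Mig1 binds GC-rich boxes, and its core was searched as the word CCGGGG, with CTGGGG allowed in its place, and likewise GCGGGG or the word GTGGGG, on both strands. All 6 enzyme genes and 3 of 4 regulator genes held a match, where 41.8% of nuclear genes did, and *SIP4* was the gene without one. *SUC2* is shown because it is the classical target of Mig1. It held 4 matches, all farther upstream than the near end of the neighbouring reading frame YIL163C, which lies 132 bases from *SUC2*, so a match may lie within that frame or past it.
SUC2 chrIX:36729-36754, plus strand: gttctcgctcCCCCAGcaaagctcaa
SUC2 chrIX:36876-36901, plus strand: ttccattattCCCCGCatttttatta
SUC2 chrIX:36936-36961, plus strand: aggaaattatCCGGGGgcgaagaaat
SUC2 chrIX:36970-36995, plus strand: cgttaatcgaCCCCACgtccagggtt
CAT8 chrXIII:831545-831570, minus strand: gcatggagcgGCGGGGctgatatttt
CAT8 chrXIII:831529-831554, minus strand: ctgatattttGTGGGGtacgaaagca

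*CAT8*, the activator gene, held 2 matches at 231 and 215 bases before its start codon, within its own upstream gap. *FBP1* and *PCK1* held 2 each, *ICL1*, *MLS1* and *MDH2* 1 each, *ADR1* 2 and *MIG1* itself 6. Both matches of *ADR1* and 5 of the 6 of *MIG1* lay past the near end of the next annotated gene, within it or farther upstream. With the window ended there, 7 of the 10 genes held a match, against 19.9% of genes. The 10 genes were chosen for known roles and include the classical Mig1 target *SUC2*. The Mig1 count is therefore also a description and not independent evidence. In the full window the Mig1 core also lay before 8 of 13 isozymes, paralogs and opposing enzymes. It lay before 10 of 16 genes for ethanol, acetate and fatty acid use and 6 of 9 for the GID ligase. For Snf1 and its phosphatase it was 3 of 11, for other repressors 3 of 8 and for other activators 2 of 8. In *MDH2* the Mig1 word and the first CSRE match shared 3 bases, the only overlap between patterns among the 10 genes. The core bound by Adr1, searched as TTGGAG and TTGGGG, was found before 5 of the 10 genes, against 53.3% of nuclear genes, a share close to the background. In a 500-base window this core was found before 1 of the 10 genes, against 26.2% of nuclear genes. With the window ended at the nearest annotated gene it was found before 3, against 21.4%.

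**Figure D1:**
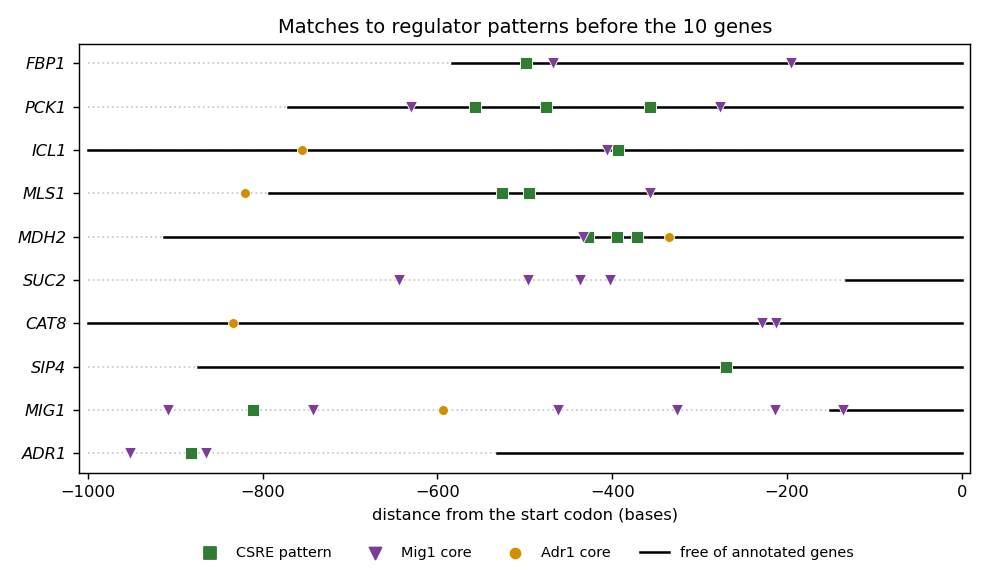
Matches before the start codon of the 10 genes, enzyme genes above regulator genes. The x axis is the distance from the start codon in bases, squares are the CSRE pattern, triangles the Mig1 core and circles the Adr1 core, and the black line runs from the gene to its nearest annotated neighbour. The CSRE squares of the 5 enzyme genes lie between 562 and 352 bases before the gene, and *SUC2* and *CAT8* have triangles but no square.

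The gluconeogenic enzymes *FBP1* and *PCK1* had RNA levels below those of most genes. *FBP1* (chrXII:873746-874792, minus strand, 1 coding segment of 1047 bases) had 390 counts in replicate 1 and 458 counts in replicate 2. These are levels of 10.9 and 12.4 FPKM, a mean of 11.7 ± 1.01 FPKM (SD, n = 2), which ranked 5138 of 6007 genes with a coding length. *PCK1* (chrXI:631152-632801, plus strand, 1650 bases) had 968 and 1074 counts, levels of 17.2 and 18.4 FPKM with a mean of 17.8 ± 0.831 FPKM and rank 4689. Both lay under the all-gene median of 45.9 ± 1.49 FPKM in each library, and *PCK1* stood 1.53 ± 0.0615 times as high as *FBP1*.

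The 3 enzymes of the glyoxylate cycle lay far apart. *ICL1*, isocitrate lyase (chrV:285241-286914, minus strand, 1674 bases), had 5771 and 6754 counts, levels of 101 and 114 FPKM and a mean of 108 ± 9.08 FPKM. *MLS1*, malate synthase, the next step of the same cycle (chrXIV:406358-408022, plus strand, 1665 bases), had 437 and 506 counts, levels of 7.71 and 8.59 FPKM and a mean of 8.15 ± 0.626 FPKM, the lowest of the 10 genes. The level of *ICL1* was thus 13.1 and 13.3 times that of *MLS1* in replicates 1 and 2, although their coding lengths are nearly equal.

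*MDH2*, the cytosolic malate dehydrogenase (chrXV:81787-82920, minus strand, 1134 bases), was the highest of the 10 genes. It had 16661 and 16742 counts, levels of 431 and 417 FPKM and a mean of 424 ± 9.92 FPKM, rank 447. The level of *MDH2* was 52.3 ± 5.23 times that of *MLS1*, and it took 56.1% and 52.3% of the counts of the 6 enzyme genes in replicates 1 and 2.

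*SUC2*, invertase, splits sucrose outside the cell and is also made in an intracellular form from a shorter transcript, which counts per gene do not separate. It lies 37384 bases from the left end of its chromosome (chrIX:37385-38983, plus strand, 1599 bases). It had 5463 and 6485 counts, levels of 100.3 and 114.7 FPKM and a mean of 108 ± 10.1 FPKM. The levels of *SUC2* and *ICL1* differed by less than the spread between replicates, at ranks 1545 and 1541.

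Among the regulator genes, the repressor and 1 activator stood highest. *MIG1* (chrVII:431548-433062, minus strand, 1515 bases) had 7929 and 8141 counts, levels of 153.7 and 151.9 FPKM and a mean of 153 ± 1.24 FPKM, the highest of the 4. *ADR1* (chrIV:895035-899006, plus strand, 3972 bases) had 14868 and 15765 counts, levels of 109.9 and 112.2 FPKM and a mean of 111 ± 1.62 FPKM. Both genes stood above the all-gene median in each library.

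The 2 activators that bind the CSRE stood lower. *CAT8* (chrXIII:827028-831329, minus strand, 4302 bases) had 3668 and 4443 counts, levels of 25.04 and 29.2 FPKM and a mean of 27.1 ± 2.94 FPKM. *SIP4* (chrX:265926-268415, plus strand, 2490 bases) had 1130 and 1276 counts, levels of 13.3 and 14.5 FPKM and a mean of 13.9 ± 0.822 FPKM. *ADR1* was 4.12 ± 0.387 times as high as *CAT8*, and *MIG1* 11.01 ± 0.740 times as high as *SIP4*.

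**Figure D2:**
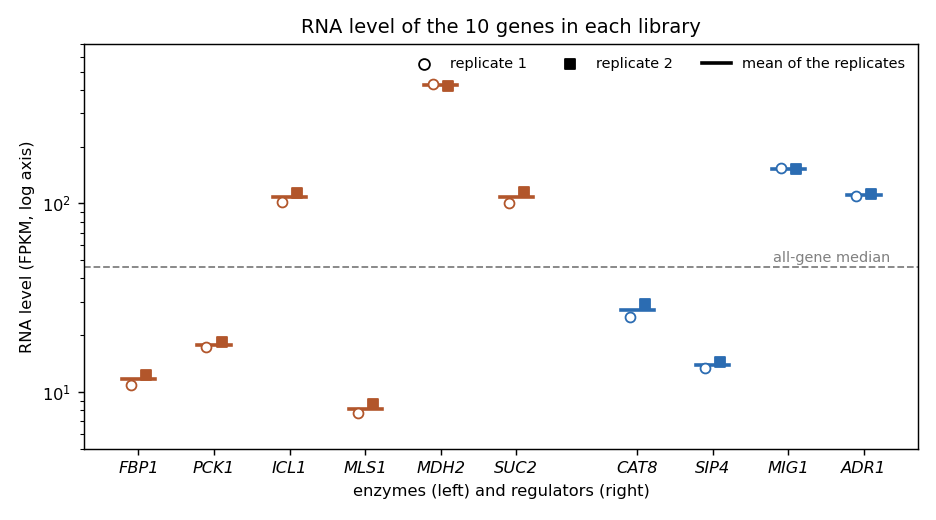
RNA level of each gene in FPKM on a log axis, enzyme genes at the left and regulator genes at the right. Open circles are replicate 1, filled squares replicate 2, bars the mean of the 2 replicates and the dashed line the all-gene median of 45.9 FPKM. *MDH2*, *ICL1*, *SUC2*, *MIG1* and *ADR1* lie above the line in both libraries and the other 5 genes below it.

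Of the 10 genes, 5 lay above the all-gene median, which equals the 50.0% of all genes that do so by definition. From the top, the order of the levels was *MDH2*, *MIG1*, *ADR1*, *ICL1*, *SUC2*, *CAT8*, *PCK1*, *SIP4*, *FBP1* and *MLS1*. The replicates of *ADR1* overlapped with those of *ICL1*, and those of *ICL1* with those of *SUC2*, so these 3 genes have no order beyond their spread. Every other pair of neighbours in the order kept its direction in both libraries, with ratios between 1.19 (*SIP4* over *FBP1*) and 3.97 (*SUC2* over *CAT8*).

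The levels of the enzyme genes and of the regulator genes overlapped. The median level of the enzyme genes was 58.8 and 66.2 FPKM in replicates 1 and 2, against 67.5 and 70.7 FPKM for the regulator genes, and the ratio of these medians was 0.904 ± 0.0465 (SD, n = 2). The enzyme genes covered a wider range, with the highest 52.1 times the lowest, against 11.0-fold for the regulator genes. Much of the size of this range rested on *MDH2*. The enzyme gene next to it by mean level, *ICL1*, stood at 13.2 ± 0.0998 times the lowest, *MLS1*. That was still above the 11.0-fold of the regulator genes. Genes are not replicates, so no test was made. Leaving out any 1 gene of the 10 moved the ratio of the medians to between 0.258 (without *ICL1*, *MDH2* or *SUC2*) and 2.31 (without *MIG1* or *ADR1*).

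Isozymes and opposing enzymes place the levels within their pathways. *FBP1* stood at 0.0241 ± 0.00139 times the level of *PFK1* and 0.0345 ± 0.00232 times that of *PFK2*, the subunits of phosphofructokinase, which catalyses the glycolytic step opposite to Fbp1. Those genes had levels of 483 ± 14.0 and 337 ± 6.58 FPKM. *FBP26*, whose product removes a phosphate from a regulatory sugar phosphate, stood at 114 ± 4.41 FPKM. *PCK1* had 0.0065 ± 0.000179 times the level of the main pyruvate kinase gene *CDC19*, which stood at 2741 ± 52.4 FPKM, and 0.133 times that of its minor isozyme *PYK2*, at 134 ± 6.24 FPKM. The pyruvate carboxylase genes *PYC1* and *PYC2*, which supply oxaloacetate to Pck1, stood at 204 ± 11.6 and 136 ± 21.6 FPKM. They share 8.46% and 8.44% of their 50-base stretches with other places of the genome, so their counts are uncertain.

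Among the isozymes of the cycle enzymes, *ICL1* stood at 3.26 ± 0.457 times the level of *ICL2*, a mitochondrial methylisocitrate lyase, which had 33.2 ± 1.87 FPKM. *MLS1* was below its paralog *DAL7*, a malate synthase of allantoin degradation, which stood at 10.8 ± 0.825 FPKM, with a ratio of 0.756 in each library. *MDH2* exceeded the mitochondrial *MDH1*, at 321 ± 52.6 FPKM, and the peroxisomal *MDH3*, at 241 ± 13.7 FPKM, by ratios of 1.34 ± 0.25 and 1.76 ± 0.141. In both libraries the cytosolic form was the highest of the 3 malate dehydrogenase genes. Among the repressor paralogs, *MIG1* was 1.48 ± 0.236 times as high as *MIG2*, at 104 ± 17.5 FPKM, and 7.25 ± 0.706 times as high as *MIG3*, at 21.2 ± 2.24 FPKM.

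Genes that act with these enzymes on ethanol, acetate and fatty acids had a median level of 35.8 ± 2.16 FPKM, and 6 of 16 exceeded the all-gene median. *CIT2*, the peroxisomal citrate synthase of the glyoxylate cycle, was highest at 795 ± 130 FPKM, followed by aconitase, *ACO1*, at 113 ± 18.3 FPKM. *SFC1*, the mitochondrial exchanger of succinate and fumarate, was lowest at 4.40 ± 0.202 FPKM. A CSRE match was found before 9 of these 16 genes and the Adr1 core before 13, against the 14.2% and 53.3% of nuclear genes given above. The list was chosen for known roles, and Adr1 is known to activate genes of this kind. These counts are therefore a description and not independent evidence, and the list was not tested against other genes.

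Genes for the Snf1 kinase and its phosphatase stood at a median of 56.8 ± 2.05 FPKM, where 6 of 11 exceeded that of all genes. The phosphatase gene *GLC7* stood at 409 ± 6.41 FPKM, the Snf1 regulatory subunit gene *SNF4* at 149 ± 0.0316 FPKM and *ELM1*, a kinase that activates Snf1, at 12.7 ± 0.172 FPKM. For other repressors and corepressors the median was 110 ± 8.49 FPKM, and 6 of 8 exceeded that of all genes. In that list *HXK2*, the hexokinase that takes part in glucose repression, stood at 1654 ± 5.40 FPKM, *MTH1*, a corepressor of hexose transporter genes, at 203 ± 9.46 FPKM and their repressor *RGT1* at 25.3 ± 0.772 FPKM. For other activators of growth on non-fermentable carbon it was 39.7 ± 1.30 FPKM, and 4 of 8 did so. They were led by *HAP4*, the activation subunit of the Hap complex, at 305 ± 13.3 FPKM and its DNA-binding partner *HAP2* at 58.5 ± 0.984 FPKM, with the zinc-cluster gene *ERT1* lowest at 17.3 ± 1.04 FPKM.

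**Figure D3:**
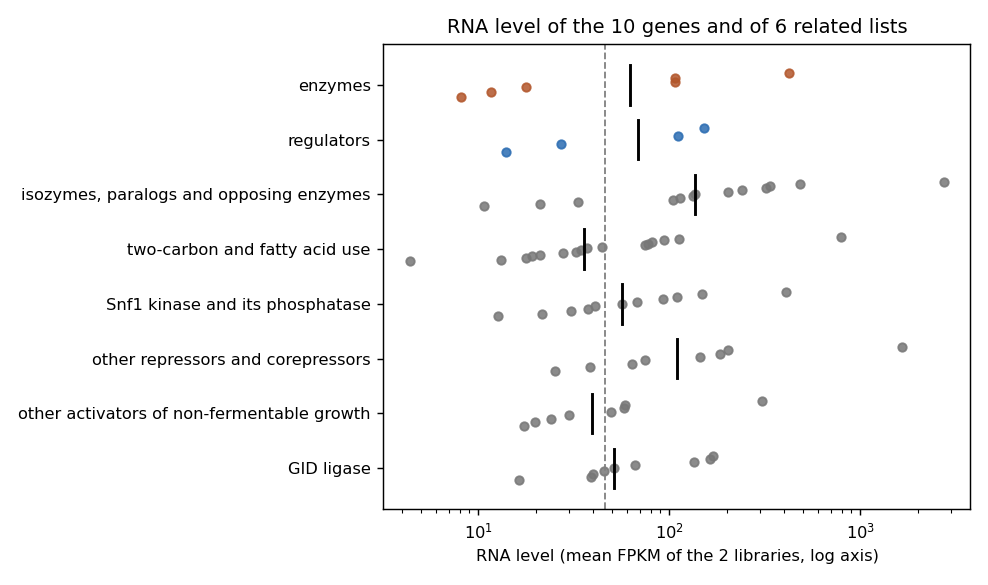
RNA level of the enzyme genes, the regulator genes and 6 lists of related genes, as the mean FPKM of the 2 libraries on a log axis. Each point is a gene, black bars are list medians and the dashed line is the all-gene median of 45.9 FPKM. The enzyme genes have a gap between 17.8 and 108 FPKM, and the regulator genes one between 27.1 and 111 FPKM.

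Several of these enzymes are known to be degraded when glucose returns, through the GID ubiquitin ligase, whose receptor subunit Gid4 (*VID24*) recognises proline at the start of a protein once the initiator methionine is removed. The start of the coding sequence is therefore shown for 5 enzyme genes, with a second codon for proline in capitals.
FBP1 chrXII:874763-874792, minus strand: atgCCAactctagtaaatggaccaagaaga
ICL1 chrV:286885-286914, minus strand: atgCCTatccccgttggaaatacgaagaac
MDH2 chrXV:82891-82920, minus strand: atgCCTcactcagttacaccatccatagaa
PCK1 chrXI:631152-631181, plus strand: atgtccccttctaaaatgaatgctacagta
MLS1 chrXIV:406358-406387, plus strand: atggttaaggtcagtttggataacgtcaaa

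Proline was the second codon of 3 of the 10 genes, *FBP1*, *ICL1* and *MDH2*, where 4.43% of 5988 nuclear genes have it. In *PCK1* the codon after it encodes proline, and in *MLS1* neither does. Several of these enzymes are known targets of the GID ligase, so the count of 3 is a description and not independent evidence. RNA levels do not measure protein, and the GID genes were present as RNA. Of these 9 genes, whose median level was 51.2 ± 0.744 FPKM, 5 exceeded the all-gene median. The conjugating enzyme gene *UBC8* stood at 170.5 ± 7.80 FPKM, the scaffold gene *GID8* at 163 ± 8.29 FPKM and *GID10*, an alternative receptor, at 16.4 ± 1.04 FPKM.

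All 6 enzyme genes had a higher codon adaptation than all 4 regulator genes, a description with no test. Codon adaptation was computed against 132 cytosolic ribosomal protein genes, and a value of 1 would mean that only their preferred codons are used. The enzyme genes ranged from 0.241 (*FBP1*) to 0.395 (*PCK1*), or the 76.7 to 92.6 percentiles of nuclear genes, while the regulator genes ranged from 0.185 (*CAT8*) to 0.212 (*ADR1*), or the 40.7 to 64.5 percentiles. *PCK1* had the highest codon adaptation of the 10 genes and an RNA level at the 21.9 percentile, whereas *MDH2* had 0.262 and an RNA level at the 92.6 percentile.

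None of the 10 genes differed by over 1.2-fold between the replicates, where 6.25% of the 5759 genes with at least 1 FPKM were over 1.2-fold higher in replicate 2 and 11.8% were over 1.2-fold higher in replicate 1. The ratio of replicate 2 to replicate 1 was above 1 for 8 of the 10 genes, against 41.8% of those 5759 genes, whose median ratio was 0.979. Intervals given here are exact binomial 95% intervals and cover counting error only.

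The largest ratio was that of *CAT8*, 1.17 (1.12 to 1.22), followed by *SUC2*, 1.14 (1.10 to 1.19), *FBP1*, 1.13 (0.986 to 1.30), and *ICL1*, 1.13 (1.09 to 1.17). *MLS1* had a ratio of 1.11 (0.979 to 1.27), *SIP4* 1.09 (1.003 to 1.18), *PCK1* 1.07 (0.978 to 1.17) and *ADR1* 1.02 (0.998 to 1.04). The ratios of *MIG1* and *MDH2* were 0.989 (0.958 to 1.02) and 0.967 (0.947 to 0.989). The interval lay wholly above 1 for 4 genes, against 22.4% of the 5759 genes, and wholly below 1 for 1 gene, against 35.4%. With 2 libraries these ratios show the spread of the replicates and are no test of a difference between cultures.

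**Figure D4:**
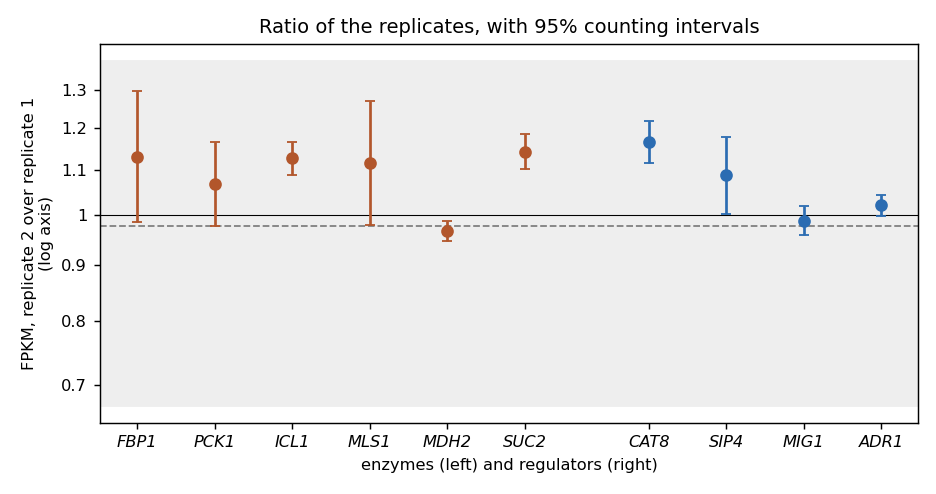
Ratio of FPKM in replicate 2 to replicate 1 for each gene, on a log axis, with exact binomial 95% counting intervals as error bars. Enzyme genes are at the left and regulator genes at the right, the grey band holds the middle 95% of genes with at least 1 FPKM and the dashed line is their median of 0.979. All 10 points lie within the band, 8 of them above 1.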

How the data were processed

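Both libraries were analysed. Per the labels and methods, mRNA was captured on beads, the NEBNext Ultra II DNA kit was used for libraries, and reads were sequenced in pairs. The submitters' processing notes name sacCer3 and featureCounts 2.0.3. Read trimming with fastp, alignment with BWA and duplicate marking with Picard are given for the study as a whole and not for the RNA libraries by name, so whether duplicates were removed from these is unclear. Their annotation, strand setting and whether reads or pairs were counted are not stated in the sources used here. The authors name the deposited values FPKM, but they are counts, whole numbers that sum to 34052011 and 35367508. FPKM was computed here from coding length in R64, for 6007 genes, and the other 685 held 0.281% and 0.292% of counts. For all 10 genes no 50-base stretch occurs elsewhere in the reference, and no annotated gene overlaps them. For *CAT8*, 89.3% of bases are free of other reading frames of at least 100 codons. Antisense reads cannot be separated without strand.

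There is 1 group, so nothing was tested and no p-value is printed. The study calls its replicates biologically independent. The rule for the 10 genes uses names alone, but they, the lists and the patterns were chosen with earlier results of these data known. From each list the 2 highest genes and the lowest are named, with all listed isozymes, paralogs and opposing enzymes. The other observations name further genes outside this rule. Alternatives were TMM scaling in edgeR 4.0.16, DESeq2 1.42.0 size factors, TPM, CPM, length without overlap, other filters, folds and windows, and each replicate alone. Scaling and ratio steps were tested on simulated data. Python 3.11.15 and R 4.3.3 were used.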

Additional observations from a re-analysis of the deposited data

How the results depend on the processing

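No paired analysis was possible because there is 1 group. The ratio of enzyme to regulator medians, 0.904, lay between 0.871 and 0.937 with 1 replicate left out. By CPM without division by length it was 0.578. It was 0.258 without *SUC2* and 2.31 without *MIG1*. In alternatives chosen after seeing the data it was 1.55 without *FBP1*, *PCK1* or *MLS1*, 0.258 without *ICL1* or *MDH2*, 0.562 without *CAT8* or *SIP4*, and 2.31 without *ADR1*, so its direction depends on single genes. In a 500-base window 5 of the 10 genes held a CSRE match, where 7.06% of nuclear genes did, against 8 in the main window, where 14.2% did. The counts above the all-gene median and past 1.2-fold moved by at most 1 gene under their alternatives. The percentile of a gene moved by at most 0.0333 under TMM or DESeq2 scaling and by up to 38.6 by CPM.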

Other observations

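Of the 65 genes in the 6 related lists, 5 were over 1.2-fold higher in replicate 2 and 3 over 1.2-fold higher in replicate 1, where 6.25% and 11.8% of genes with at least 1 FPKM were. The first count was close to the share of all genes and the second was below it. The genes named here were chosen after their values were seen, and no explanation was tested. Higher in replicate 2 were the carnitine acetyltransferase genes *CAT2* and *YAT1*, with ratios of 1.29 and 1.25, *MDH1* at 1.26, *ACO1* at 1.26 and *PYC2* at 1.25. Higher in replicate 1 were the repressor genes *NRG2* and *MIG2*, with ratios of replicate 2 to replicate 1 of 0.758 and 0.788, and *CIT2* at 0.793. Among known glucose-repressed genes outside the 10, the acetyl-CoA synthetase gene *ACS1* stood at 81.6 ± 9.75 FPKM and the lactate permease gene *JEN1* at 77.6 ± 3.52 FPKM. *ADH2*, the ethanol-oxidising alcohol dehydrogenase, stood at 74.3 ± 2.63 FPKM. They come from the list of 16 genes for ethanol, acetate and fatty acid use, of which 6 exceeded the all-gene median of 45.9 FPKM. Others of that list lay below it, among them *POT1* at 13.2 ± 1.19 FPKM and *IDP2* at 21.2 ± 0.468 FPKM. *ADH2* shares 14.0% of its 50-base stretches with other places of the genome, so its count is uncertain.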
